A study of Mus musculus with 21 samples.

Results

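The paired myeloid receptors are cell-surface proteins of microglia, macrophages, granulocytes and natural killer cells that come as inhibitory and activating members of the same gene families. The 10 genes described here, out of 25127 in the deposited table, are Lilrb4a, Lilr4b, Pirb, Cd300lb, Cd300lf, Cd300a, Pilra, Sirpa, Siglece and Klrb1b. They were listed by name from these families, with earlier results of these data known, and all 10 had values. They were read in RNA from whole spinal cord of 21 C57BL/6 mice in which Tardbp, the gene of the RNA-binding protein TDP-43, was or was not deleted with Cnp-Cre, a recombinase driven from the locus of the oligodendrocyte gene Cnp. Knockout mice (cKO) were Cnp-Cre; Tardbp-fl/fl, heterozygous mice (cHET) were Cnp-Cre; Tardbp-fl/+, and control mice were Tardbp-fl/fl without Cre, so both cKO and cHET carry Cre and only cKO lose both alleles in Cre-expressing cells. Each genotype was sampled at postnatal day 21 (P21) in 2 female and 2 male mice. The second age, about day 60 (P60), had 3 mice of each genotype: cKO males of 61, 61 and 64 days, cHET males of 60, 63 and 65 days, and control females of 74 days. At P60, sex and age therefore differ between cKO and control but sex does not differ between cKO and cHET. Each library carries its own mouse number in the labels.

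Inhibitory members carry immunoreceptor tyrosine-based inhibitory motifs (ITIMs) in the cytoplasmic tail, which recruit the phosphatases SHP-1, SHP-2 and SHIP1 when the receptor meets its ligand. Activating members have short tails and pair with adaptors such as DAP12, the product of Tyrobp, which signal through the kinase Syk. In the central nervous system these receptors are found mainly on microglia and border macrophages, where they set thresholds for phagocytosis and cytokine release. The set holds 8 inhibitory genes and a pair without an inhibitory tail, Lilr4b and Cd300lb.

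Values are the authors' normalized scaled reads per base, a measure per length of transcript, so that levels of different genes can be ranked within an age. Median-of-ratios factors lie between 0.984 and 1.03 within P21 and between 0.983 and 1.01 within P60, and the 2 ages differ in overall level and were made with different library kits (Illumina TruSeq at P21, NEXTflex Rapid Directional at P60), so age and kit cannot be told apart and levels are not compared across ages. Values above 0 were listed for 20366 to 20880 genes in the P21 libraries and for 19645 to 20138 in the P60 libraries, and the depth is unknown. The positional Hox genes of the spinal cord were present in every group. Tardbp itself was lower in cKO than in cHET by a log2 change of -0.29 at P21 (adjusted p = 0.0025) and -0.20 at P60 (adjusted p = 0.040), and against control by -0.37 (adjusted p = 0.00033) and -0.14 (adjusted p = 0.14). In bulk cord, fewer cells of a type and less RNA per cell cannot be told apart, and this holds for every receptor below. Each change is a log2 change of value + 0.5 with its standard error, which understates the change of low genes, and each adjusted p is from limma with Benjamini-Hochberg adjustment over all genes tested.

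The receptors lie at a few clusters of the mouse genome (GRCm38, GENCODE M21). Lilr4b (chr10:51480632-51486703) and Lilrb4a (chr10:51490956-51496611) are neighbours on the plus strand of chromosome 10, with 4252 bases between them. Cd300a (chr11:114890041-114904654, plus strand), Cd300lb (chr11:114922781-114934386, minus strand) and Cd300lf (chr11:115116214-115133992, minus strand) share a stretch of chromosome 11. Pirb (chr7:3711409-3720391) and Siglece (chr7:43651070-43660161) are on the minus strand of chromosome 7, Pilra (chr5:137821952-137836281) and Klrb1b (chr6:128813706-128826331) on the minus strands of chromosomes 5 and 6, and Sirpa (chr2:129592835-129632228) on the plus strand of chromosome 2.

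The 250 bases before the RefSeq start (GRCm38.p6) were read for 8 of the 10 genes, and Lilrb4a and Sirpa were not matched. The core letters GAGGAA of the motif of PU.1, the lineage factor of myeloid cells, were searched on both strands. They were found in 6 of the 8 promoters, against 23.25% of all 32851 promoters of the same length. Pirb and Siglece each held 3 matches, Cd300lf, Cd300a, Pilra and Klrb1b held 1 each, and Lilr4b and Cd300lb held none. The promoters of 5 genes are shown as examples with 0, 1 and 3 matches. Capitals mark GAGGAA or its reverse complement, and each sequence is written 5′ to 3′ along the gene.
Lilr4b, chr10:51480362-51480611, plus strand: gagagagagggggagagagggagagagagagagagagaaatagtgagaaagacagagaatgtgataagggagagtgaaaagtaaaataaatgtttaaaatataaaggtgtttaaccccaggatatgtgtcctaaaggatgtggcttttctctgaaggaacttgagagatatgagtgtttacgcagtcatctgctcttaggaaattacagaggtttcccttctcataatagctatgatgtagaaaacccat
Cd300lb, chr11:114934372-114934621, minus strand: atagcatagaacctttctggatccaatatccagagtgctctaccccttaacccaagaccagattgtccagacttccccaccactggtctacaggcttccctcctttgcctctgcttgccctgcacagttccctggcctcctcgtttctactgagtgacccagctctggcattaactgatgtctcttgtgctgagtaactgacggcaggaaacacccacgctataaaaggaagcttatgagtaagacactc
Klrb1b, chr6:128826316-128826565, minus strand: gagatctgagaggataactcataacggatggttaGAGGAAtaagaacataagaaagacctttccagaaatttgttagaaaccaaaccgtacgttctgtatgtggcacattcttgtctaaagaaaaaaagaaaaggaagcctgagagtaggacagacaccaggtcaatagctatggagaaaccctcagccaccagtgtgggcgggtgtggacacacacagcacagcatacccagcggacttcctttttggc
Pirb, chr7:3720383-3720632, minus strand: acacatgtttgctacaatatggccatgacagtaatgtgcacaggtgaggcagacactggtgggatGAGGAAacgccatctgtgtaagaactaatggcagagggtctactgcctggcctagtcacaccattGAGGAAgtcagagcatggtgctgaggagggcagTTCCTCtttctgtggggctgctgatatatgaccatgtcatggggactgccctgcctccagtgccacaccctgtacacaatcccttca
Siglece, chr7:43660162-43660411, minus strand: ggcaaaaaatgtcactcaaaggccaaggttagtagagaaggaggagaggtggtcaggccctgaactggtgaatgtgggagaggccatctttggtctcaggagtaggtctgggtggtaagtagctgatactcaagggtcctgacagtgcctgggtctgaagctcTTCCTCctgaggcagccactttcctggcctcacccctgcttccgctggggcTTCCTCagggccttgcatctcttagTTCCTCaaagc
The match in Klrb1b began 216 bases before the start, the matches in Pirb began 185, 120 and 87 bases before it, and those in Siglece 87, 36 and 11 bases before it. Of the other motifs searched on both strands, the AP-1 letters TGANTCA were in none of the 8 promoters (6.749% of all promoters), the interferon regulatory factor pair GAAANNGAAA was in 1, Pilra (2.977%), and the C/EBP letters TTGCNNAA were in 2, Cd300a and Pilra (9.564%). These are matches of letters in a window and not measured binding. Spi1, which encodes PU.1, stood at 159 to 232 in P21 cKO and 28.8 to 68.4 in P21 cHET.

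Lilrb4a, the inhibitory immunoglobulin-like receptor once called gp49B, was the second most abundant receptor of the set in cKO cord and scarce without the deletion. At P21 its values were 1381, 1606, 1446 and 950 in cKO, 13.9, 15.3, 60.7 and 8.59 in cHET, and 13.1, 14.2, 32.2 and 33.8 in control. At P60 they were 727, 819 and 885 in cKO, 6.89, 33.9 and 38.9 in cHET, and 22.4, 1.97 and 4.53 in control. The lowest cKO library stood far above the highest library of either other genotype at both ages. The log2 change of cKO over cHET was 6.13 ± 0.48 at P21 (adjusted p = 3.7e-07) and 5.23 ± 0.76 at P60 (adjusted p = 0.00047), and over control it was 5.93 ± 0.48 and 6.94 ± 0.76. The highest P21 cHET library, replicate 3, stood above the other 3 of its group and below every cKO library.

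Lilr4b, its neighbour once called gp49A, has an almost identical extracellular part but no inhibitory tail. At P21 it read 366, 408, 397 and 249 in cKO, 6.56, 1.62, 10.1 and 1.89 in cHET, and 3.41, 6.62, 18.2 and 5.93 in control. At P60 it read 254, 225 and 240 in cKO, 1.67, 2.54 and 11.1 in cHET, and 2.62, 3.45 and 11.3 in control. No cKO library overlapped the other genotypes, and Lilr4b had the highest log2 change of the set over cHET, with 6.31 ± 0.53 at P21 (adjusted p = 8.2e-07) and 5.82 ± 0.62 at P60 (adjusted p = 4.5e-05). The inhibitory and the tailless gene kept a narrow proportion inside cKO cord, where Lilrb4a over Lilr4b was 3.65 to 3.94 in the 4 P21 libraries and 2.86 to 3.69 in the 3 P60 libraries. In P21 cHET the same proportion ranged from 2.11 to 9.45 and in P21 control from 1.77 to 5.70, on values close to the lower limit. The pair share sequence: 39.1% of the 31-base words of Lilrb4a transcripts also occur in Lilr4b and 36.7% of those of Lilr4b in Lilrb4a. Over all other genes the shared part was 56.1% for Lilrb4a and 37.3% for Lilr4b. The split of reads between them therefore depends on the authors' assignment, and each gene's own level is uncertain.

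Pirb, the paired immunoglobulin-like receptor B, is inhibitory and binds MHC class I as well as the myelin proteins Nogo, MAG and OMgp. In the P21 libraries it stood at 122, 101, 129 and 79.6 in cKO, 17.9, 18.1, 37.8 and 19.4 in cHET, and 15.1, 26.8, 22.3 and 33.2 in control. In the P60 libraries it stood at 119, 111 and 88.8 in cKO, 15.1, 15.3 and 10.4 in cHET, and 13.9, 17.1 and 4.89 in control. The groups did not overlap, and the log2 change over cHET was 2.24 ± 0.29 at P21 (adjusted p = 6.0e-05) and 2.93 ± 0.39 at P60 (adjusted p = 0.00025). Of the 31-base words of Pirb transcripts, 44.1% occur in other genes, most often in Gm14548, so reads of its activating Pira relatives may enter its value. Of those relatives, Pira2 reached 8.28 in P21 cKO and 9.44 in P60 cKO. The levels of Pira1, Pira6, Pira7 and Pira12 are not given here, and what such reads add to Pirb was not tested.

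**Figure D1:**
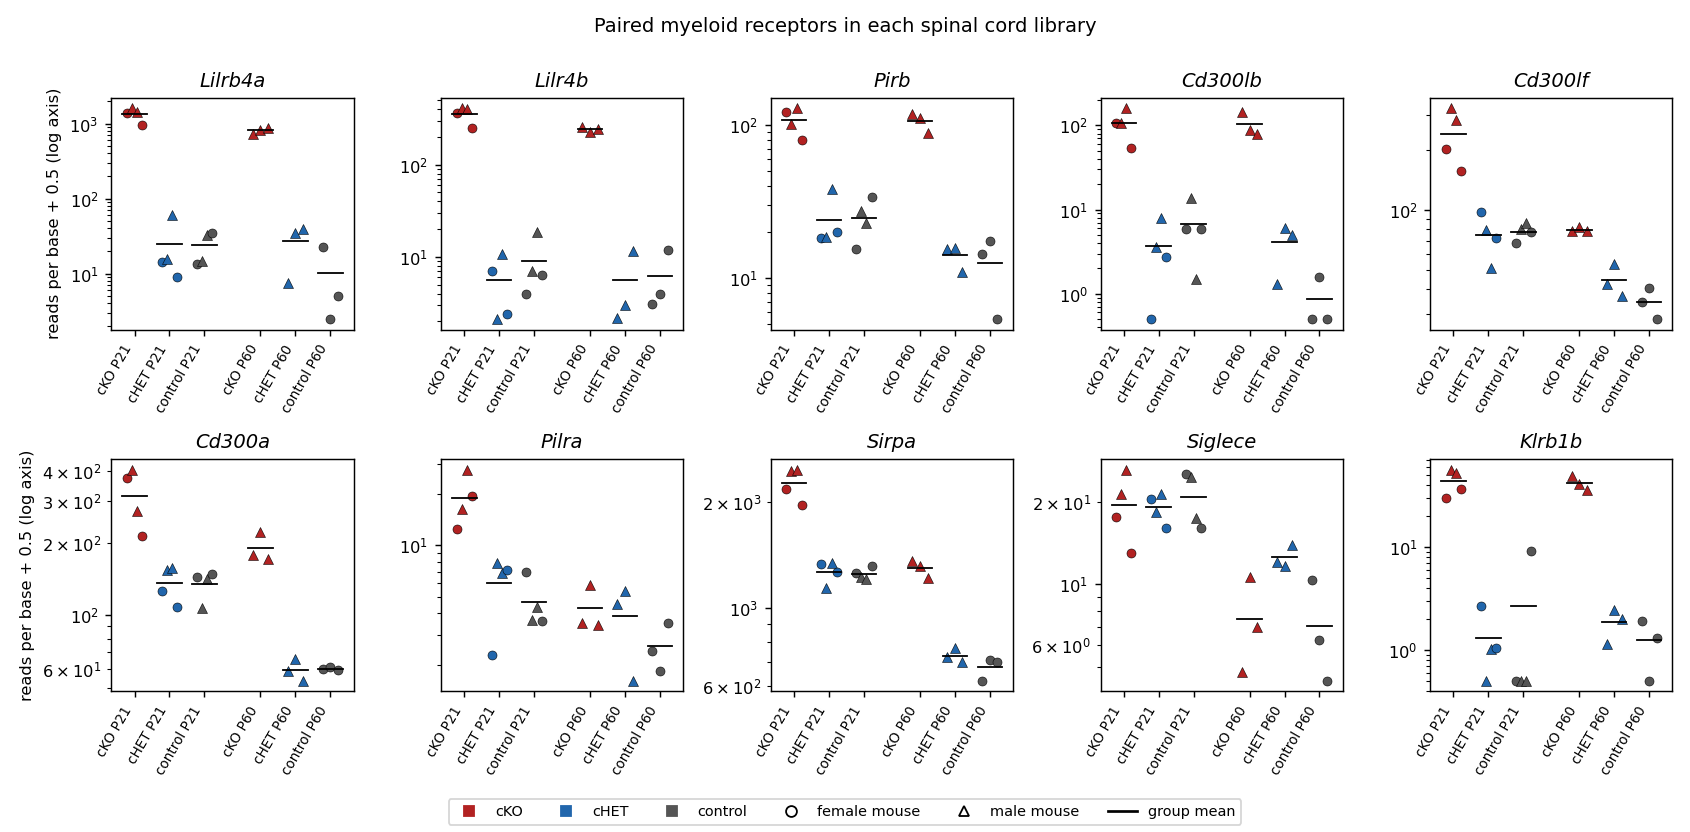
Level of each receptor in every library (reads per base + 0.5, log axis; circles female, triangles male, bars group means). The cKO libraries stand apart from cHET and control for 9 receptors at P21 and 8 at P60, while Siglece overlaps them at P21 and overlaps control at P60, and Pilra overlaps both at P60.

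The CD300 genes on chromosome 11 changed by very different amounts. Cd300lb, an activating member that pairs with DAP12 in mouse, was near the lower limit without the deletion. The P21 values were 105, 107, 159 and 53.4 in cKO, while cHET libraries read 3.10, 7.48 and 2.21 with 1 listed at 0, and control libraries read 5.33, 13.3, 1.01 and 5.43. The P60 values were 143, 88.7 and 78.7 in cKO, 0.808, 5.61 and 4.44 in cHET, and 1.09 in 1 control with the other two listed at 0. All cKO libraries stood above all others, and the log2 change over cHET was 5.31 ± 0.78 at P21 (adjusted p = 0.00017) and 4.88 ± 0.67 at P60 (adjusted p = 0.00031). No 31-base word of its transcripts occurs in another gene.

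Cd300lf, an inhibitory receptor of phospholipids and ceramide, was already well detected in cHET and control cord. At P21 its level was 204, 325, 282 and 157 in cKO, 97.5, 79.3, 50.9 and 72.0 in cHET, and 68.1, 79.5, 85.5 and 77.0 in control. At P60 its level was 77.9, 81.6 and 77.8 in cKO, 42.0, 53.3 and 36.4 in cHET, and 34.0, 40.2 and 27.8 in control. The groups did not overlap at either age, with log2 changes over cHET of 1.67 ± 0.23 at P21 (adjusted p = 8.8e-05) and 0.86 ± 0.19 at P60 (adjusted p = 0.0065). The proportion of Cd300lf over Cd300lb was 1.77 to 3.04 in P21 cKO, against 6.81 to 32.5 in the 3 P21 cHET libraries with Cd300lb above 0. In P60 cKO it was 0.55 to 0.99, against 8.19 to 52.0 in P60 cHET.

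Cd300a, an inhibitory receptor of phosphatidylserine and phosphatidylethanolamine, was likewise well detected in every group. In the P21 libraries it stood at 371, 402, 270 and 213 in cKO, 126, 154, 156 and 107 in cHET, and 144, 107, 141 and 148 in control. At P60 it read 177, 221 and 171 in cKO, 57.9, 65.6 and 52.9 in cHET, and 59.1, 60.4 and 58.6 in control. Every cKO library was above every other, and the log2 change over cHET was 1.18 ± 0.19 at P21 (adjusted p = 0.00048) and 1.68 ± 0.14 at P60 (adjusted p = 5.9e-06). Of the words of Cd300a transcripts 8.20% and of those of Cd300lf 4.73% occur in other genes.

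Sirpa, the inhibitory receptor of CD47 that restrains phagocytosis, was the most abundant receptor of the set in all 6 groups and had the smallest of the called changes. It read 2181.9, 2451, 2475 and 1963 in P21 cKO, 1332, 1138, 1338 and 1265 in P21 cHET, and 1259, 1222, 1205 and 1319 in P21 control. In the P60 libraries it stood at 1360, 1313 and 1213 in cKO, 724, 768 and 700 in cHET, and 619, 708 and 701 in control. The groups did not overlap, and the log2 change over cHET was 0.84 ± 0.08 at P21 (adjusted p = 2.2e-06) and 0.83 ± 0.07 at P60 (adjusted p = 1.3e-05). Neurons express Sirpa too, and the neuronal list moved the other way at P21, with 7 of 8 neuronal genes lower in cKO than in cHET and none higher, and 5 of 8 lower at P60. Of all tested genes, 9.97% were lower at P21 and 11.5% at P60. What neurons contribute to the level of Sirpa was not tested.

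Siglece, an inhibitory sialic acid-binding lectin of mouse microglia and neutrophils, was the 1 tested receptor whose level was not called in any comparison of genotypes. At P21 it read 17.0, 20.9, 25.7 and 12.5 in cKO, 20.1, 17.9, 20.8 and 15.5 in cHET, and 24.7, 24.2, 16.9 and 15.5 in control, with full overlap. The P60 values were 4.28, 10.1 and 6.48 in cKO, 11.5, 11.1 and 13.4 in cHET, and 9.84, 5.76 and 3.94 in control. All 3 P60 cKO libraries were below all 3 cHET libraries, and their range overlapped that of control, and the log2 change over cHET was -0.82 ± 0.43 (adjusted p = 0.20), beside -0.0042 ± 0.28 at P21 (adjusted p = 0.99). Genes with every P60 cKO library below every cHET library made up 18.9% of those tested.

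Pilra, an inhibitory receptor of sialylated glycoproteins, was low in every group. In the P21 libraries it stood at 12.03, 15.9, 27.2 and 18.9 in cKO, 1.78, 7.42, 6.41 and 6.64 in cHET, and 6.46, 3.18, 3.83 and 3.08 in control. These groups did not overlap, and the log2 change was 1.74 ± 0.48 over cHET (adjusted p = 0.017) and 2.03 ± 0.48 over control (adjusted p = 0.0058). The call over cHET rests on the highest cKO library: without replicate 3 the change was 1.54 and the adjusted p 0.056. At P60 its level was 3.01, 5.38 and 2.92 in cKO, 4.04, 4.89 and 1.11 in cHET, and 1.92, 1.34 and 2.99 in control, too low to be tested. The authors' deposited table lists it there with a log2 change over cHET of 0.28 and a q-value of 0.83. Of the words of Pilra transcripts 28.5% occur in other genes, of which Zcwpw1 shares the most.

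Klrb1b, an inhibitory C-type lectin-like receptor of mouse natural killer cells that binds the product of Clec2d, was present in cKO cord and close to absent elsewhere. The P21 values were 29.3, 55.7, 51.6 and 36.3 in cKO, 2.15, 0.518 and 0.537 in cHET with 1 library listed at 0, and 8.67 in 1 control with the other 3 listed at 0. At P60 it read 48.1, 40.2 and 35.5 in cKO, 0.642, 1.96 and 1.495 in cHET, and 1.42 and 0.792 in control with 1 listed at 0. The log2 change over cHET was 5.28 ± 0.90 at P21 (adjusted p = 0.00063) and 4.54 ± 0.60 at P60 (adjusted p = 0.00023), with no overlap. Of the markers of natural killer and T cells, none of 5 tested was called at P21 and none of 4 at P60, with 0 and 1 higher at an unadjusted p under 0.05 by limma. The summed level of that list was 48.6 to 94.8 in P21 cKO and 52.2 to 92.2 in P21 cHET. Ncr1, the defining receptor of natural killer cells, was listed at 0 in every P21 cHET and control library and reached 4.91 in P21 cKO. It stayed below the minimum value of the filter there and was not tested at either age. At P60 every gene of that list with values, Ncr1 included, was above 0 in some cHET library. Of the words of Klrb1b transcripts 30.8% occur in other genes, 27.5% in Gm44511, an uncharacterized gene.

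Against cHET, 9 of the 10 receptors were higher in cKO at P21, where 12.6% of 17989 tested genes were higher, and 8 of 9 tested were higher at P60, where 13.4% of 16833 were. Against control the counts were 9 of 10 at P21 (background 14.6%) and 8 of 9 at P60 (background 14.5%), and no receptor was lower in cKO in any of the 4 comparisons. Lower genes made up 9.97% and 11.5% of those tested against cHET at P21 and P60, and 12.3% and 11.4% against control. The same numbers of receptors had no overlap between cKO and cHET, against 12.7% of genes with cKO wholly higher at P21 and 20.6% at P60, and between cKO and control, against 15% and 22%. The median log2 change of the tested receptors over cHET was 1.99 at P21 and 2.93 at P60, beside medians of all tested genes of -0.0076 and 0.0033. These counts carry a limit of the filter: Klrb1b at P21, and Lilr4b, Cd300lb and Klrb1b at P60, would not have met it without their cKO libraries. The filter itself therefore favoured a difference for them, and their calls are not independent of it. The receptors and the other gene lists below were also chosen with earlier results of these data known. The shares of all tested genes, here and below, are therefore not an unbiased background for them. The comparisons with cHET and with control share the cKO libraries and are not independent.

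**Figure D2:**
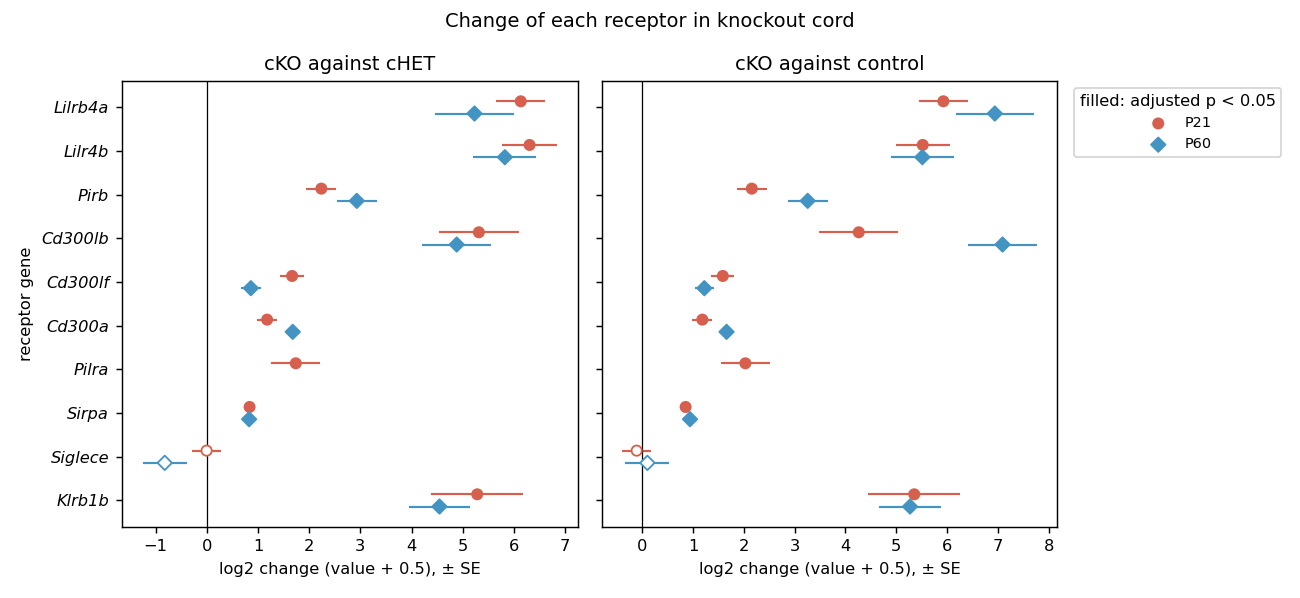
Log2 change of each receptor in cKO over cHET (left) and over control (right), with its standard error, at P21 (circles) and P60 (diamonds). Filled marks passed an adjusted p of 0.05; Lilrb4a, Lilr4b, Cd300lb and Klrb1b lie at 4.26 or higher in both panels, and Pilra has no mark at P60 because it was too low to be tested.

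Between cHET and control, which differ in Cre as well as in the number of floxed alleles, no receptor was called. By limma, 0 of 10 receptors differed between cHET and control at P21 and 0 of 9 at P60, where 0.0111% and 0.0178% of all tested genes did. At an unadjusted p under 0.05 by limma the counts were 0 at P21 and 2 at P60, Lilrb4a and Cd300lb, both higher in cHET. In the authors' deposited table, 0 of 9 receptors at P21 and 0 of 6 at P60 had a q-value under 0.05. That table does not list Lilrb4a or Cd300lb at P60, so its count says nothing about them. The change of Cd300lb was 2.21 ± 0.67 at P60 (adjusted p = 0.73) on the values of 0.808 to 5.61 in cHET and at most 1.09 in control. The P60 controls were female and the cHET male.

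The change in cKO was not called different between the ages for any receptor. By limma, the difference between the P60 and the P21 change over cHET passed for 0 of 10 receptors, against 2.82% of 18252 genes, and over control for 0 of 10, against 3.93%. At an unadjusted p under 0.05, Cd300lf had a smaller change over cHET at P60 (difference -0.81 ± 0.32, adjusted p = 0.24), and Pirb (1.10 ± 0.50, adjusted p = 0.28) and Cd300lb (2.83 ± 1.14, adjusted p = 0.21) had larger changes over control. The standard errors are wide for the low genes, with 1.14 for Cd300lb over cHET, and the ages are not shown to be alike.

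The make-up of the receptor set differed in cKO cord. The summed level of the 10 genes was 4819 ± 781 in P21 cKO, 1560 ± 115 in P21 cHET and 1553 ± 67.2 in P21 control (SD, n = 4 each). At P60 it was 2876 ± 65.8 in cKO, 899 ± 54.6 in cHET and 807 ± 38.7 in control (SD, n = 3 each). Sirpa made up 47.4% ± 3.6 of the sum in P21 cKO, 81.3% ± 2.5 in P21 cHET and 80.6% ± 1.4 in P21 control. Lilrb4a made up 27.8% ± 1.7, 1.52% ± 1.40 and 1.49% ± 0.68 in those groups. The share of the pair without an inhibitory tail, Lilr4b and Cd300lb, was 9.47% ± 1.03 in P21 cKO, 0.51% ± 0.36 in P21 cHET and 0.96% ± 0.39 in P21 control, and 11.9% ± 1.5 in P60 cKO, 0.97% ± 0.75 in P60 cHET and 0.75% ± 0.55 in P60 control. No cKO library overlapped another genotype in any of these 3 shares. The shares of Lilrb4a and of the pair with Lilr4b depend on how reads were assigned between Lilrb4a and Lilr4b.

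The order of levels differed as well. In P21 cKO it was Sirpa, Lilrb4a, Lilr4b, Cd300a, Cd300lf, Pirb, Cd300lb, Klrb1b, Siglece and Pilra. Lilr4b overlapped Cd300a and Cd300a overlapped Cd300lf, Pirb and Cd300lb overlapped each other, Cd300lb overlapped Klrb1b, and Siglece overlapped Pilra, while the other neighbours stood apart. In P21 cHET the order was Sirpa, Cd300a, Cd300lf, Lilrb4a, Pirb, Siglece, Pilra, Lilr4b, Cd300lb and Klrb1b. There Sirpa, Cd300a and Cd300lf stood apart from each other and Siglece from Pilra, and all other neighbours overlapped. Lilr4b, in place 3 in cKO, was among the 3 lowest in cHET, where its range overlapped those of both neighbours. Its place depends on the assignment of the reads it shares with Lilrb4a. In P60 cKO the first 4 places were the same as at P21, and Cd300lf came after Pirb and Cd300lb, with a range that overlapped that of Cd300lb.

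**Figure D3:**
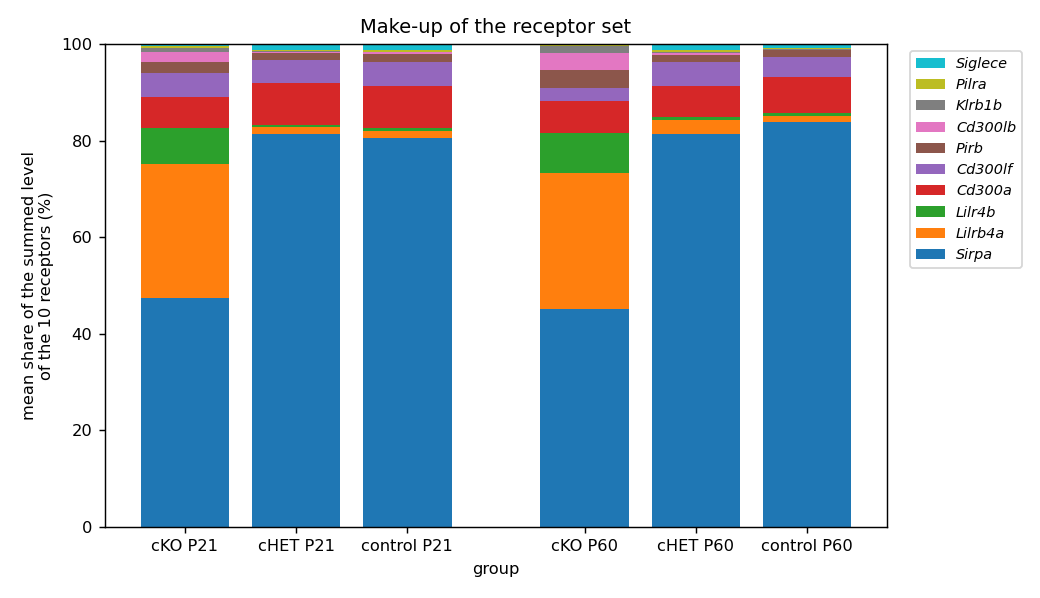
Mean share of each receptor in the summed level of the 10 genes, by group (percent of reads per base). Sirpa takes 47.4% of the sum in P21 cKO against 81.3% in cHET and 80.6% in control, and Lilrb4a takes 27.8% against 1.52% and 1.49%.

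General microglial genes rose in the same libraries, so each receptor was also set against them. The mean log2 level of 8 such genes (Csf1r, Aif1, Spi1, Irf8, Laptm5, Itgam, Ptprc and Cd53) was 10.1 in P21 cKO, 7.80 in P21 cHET and 7.75 in P21 control, and 9.09, 6.92 and 6.74 in P60 cKO, cHET and control. Relative to that mean, Lilrb4a (3.82 ± 0.38), Lilr4b (3.998 ± 0.47), Cd300lb (3.01 ± 0.68) and Klrb1b (2.97 ± 0.89) were higher in cKO than in cHET at P21, with adjusted p from 3.3e-09 to 0.0035, where 0.65% of all genes were higher. At P60 the same 4 were higher, with 3.05, 3.65, 2.70 and 2.37 in that order, and so was Pirb (0.75 ± 0.34, adjusted p = 0.042), against 0.796% of all genes. The call for Pirb ended without any 1 of the 3 cKO libraries or without cHET replicate 3, with adjusted p up to 0.16. The filter limit given above holds here too: Klrb1b at P21, and Lilr4b, Cd300lb and Klrb1b at P60, were tested through their cKO libraries, and their calls are not read against these shares. Against control the same 4 were higher at P21 (background 0.673%) and the same 5 at P60 (background 0.838%), where Pirb was not called without control replicate 3 (0.46) or without cKO replicate 1 (0.84). Cd300lb over control at P21 was 1.90 ± 0.68 (adjusted p = 0.012) and 1.31 without control replicate 3 (adjusted p = 0.056).

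Sirpa (-1.47 ± 0.13), Cd300a (-1.13 ± 0.18), Cd300lf (-0.64 ± 0.22) and Siglece (-2.31 ± 0.32) were lower in cKO than in cHET at P21 when each was taken relative to the general microglial mean, and the same 4 were lower in this way at P60, where Cd300a was not called without cHET replicate 2 (-0.39) or without cKO replicate 1 (-0.43). This was so for 95.1% of all genes at P21 and 95.2% at P60, since the base itself rose, and therefore says nothing particular about these receptors. Pirb and Pilra were not called relative to the base at P21, with -0.07 ± 0.28 (adjusted p = 0.80) and -0.57 ± 0.53 (adjusted p = 0.30). The choice of base matters: with homeostatic microglial genes as the base, Cd300lf and Cd300a changed sign at both ages, Pirb at P21 and Sirpa at P60, and Lilrb4a, Lilr4b, Cd300lb and Klrb1b remained higher.

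**Figure D4:**
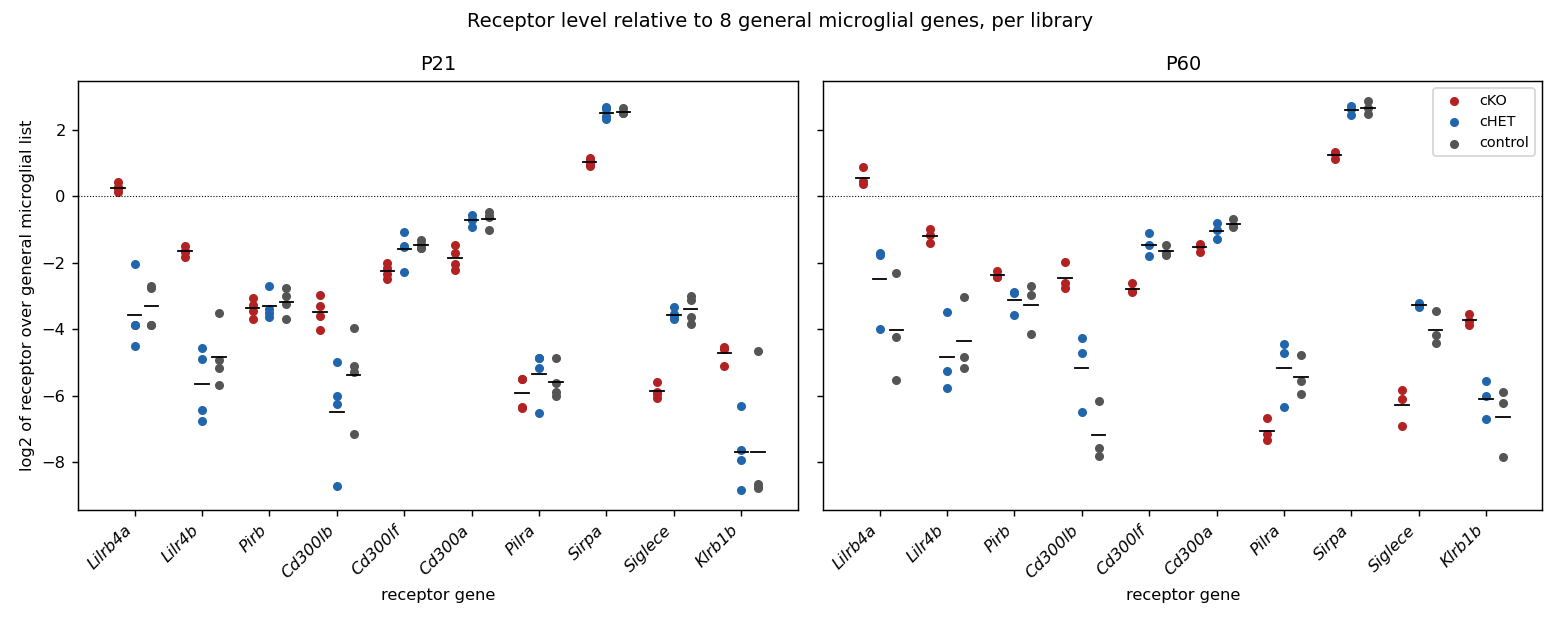
Log2 of each receptor over the mean log2 of 8 general microglial genes, per library (points) with group means (bars), at P21 (left) and P60 (right). Lilrb4a and Lilr4b lie higher in every cKO library than in any other library of the age, and Sirpa, Cd300a and Siglece lie lower.

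The 4 P21 cKO cords differed among themselves in a shared way. Replicate 4, a female, had the lowest value for 8 of the 10 receptors, and replicates 2 and 3, both male, had the highest for 5 each. Both males were above both females for 7 of 10 receptors, against 23.7% of all genes. The general microglial mean followed the same order, with 10.01 and 9.78 in the females and 10.4 and 10.3 in the males, and relative to it only Cd300lf was higher in both males and only Sirpa in both females, while the ranges of the other 8 overlapped. With 2 mice of each sex no test was made.

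Across all 21 libraries, centred on the mean of their age, 8 receptors moved together. The 28 pairs among them, leaving out Siglece and Pilra, had Pearson correlations of 0.81 to 0.95 with a median of 0.90, and the 9 pairs with Siglece had -0.22 to 0.01. Centred on the group instead, the 28 pairs had -0.14 to 0.44 with a median of 0.17, so most of the shared movement is the difference between genotypes that all points carry. The genes whose pattern over the 21 libraries was most like each receptor, among 16428 compared, came from the same contrast. For Lilrb4a they were Gpr65, a proton-sensing receptor, Naglu, a lysosomal glycosidase, and Csf2rb, the shared beta chain of the receptors of GM-CSF and interleukin 5 (r = 0.98, 0.98 and 0.97). For Lilr4b they were Tgfb1, Dock2 and Clec7a (0.97 each), for Pirb Il3ra, Mdfic and Cd74 (0.98, 0.98 and 0.97), and for Klrb1b Atp6v0d2 of the vacuolar ATPase, Galns and Dnase2a (0.96, 0.96 and 0.95). Cd300lb was most like Apoc2, Ifi207 and Cdk2 (0.97, 0.96 and 0.95), Cd300lf like Sel1l3, Tifab and Prss30 (0.95, 0.94 and 0.94), and Cd300a like Abca1, Adap2 and Stra6l (0.97 each). For Sirpa they were Fmod, Clic1 and Fcer1g (0.99 each), and for Pilra and Siglece the closest were weaker, with Sfrp5 at 0.85 and Ssr1 at 0.86.

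Most genes that carry the signal of these receptors were higher in cKO. Of 12 adaptors and activating kinases, all 12 were higher in cKO than in cHET at P21 and 11 at P60, with median log2 changes of 2.34 and 2.04. Of all tested genes, 12.6% were higher at P21 and 13.4% at P60. Tyrobp, the DAP12 adaptor, stood at 2460 to 3411 in P21 cKO and 292 to 352 in P21 cHET (3.18 ± 0.12, adjusted p = 6.4e-10), and Fcer1g, the Fc receptor gamma chain, rose by 2.99. Vav1, an exchange factor downstream of Syk, rose by 2.41 and Plcg2, a phospholipase, by 1.57. Of the 3 phosphatases that inhibitory tails recruit, Ptpn6 (SHP-1) rose by 2.24 ± 0.33 (adjusted p = 0.00019) and Inpp5d (SHIP1) by 1.82 ± 0.20 (adjusted p = 1.3e-05), while Ptpn11 (SHP-2), which most cells express, had 0.11 ± 0.08 (adjusted p = 0.38). At P60 the same pair rose, by 2.42 and 1.67, and Ptpn11 had -0.17 (adjusted p = 0.19).

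Ligand genes were in part higher in cKO. Of 12 ligand genes analysed here, 6 were higher and 2 lower in cKO than in cHET at P21. At P60, 6 were higher and 1 lower, and Cd47 and Cd99 were not analysed here. Among all tested genes, 12.6% were higher and 9.97% lower at P21, and 13.4% and 11.5% at P60. The counts of lower ligand genes are near those shares and are not read as a result about ligands. The MHC class I genes that Pirb binds were higher at P21, with log2 changes of 1.97 ± 0.17 for B2m, 1.73 ± 0.16 for H2-K1 and 1.41 ± 0.13 for H2-D1, and 1.67, 1.38 and 1.31 at P60. Fn1, fibronectin, a ligand reported for human LILRB4, rose by 1.40 ± 0.15 at P21 and 0.92 ± 0.11 at P60. The myelin ligands of Pirb, singled out after their values were seen, were in part lower. Mag had a log2 change of -0.21 ± 0.06 at P21 (adjusted p = 0.019) and, later, of -0.91 ± 0.09 (adjusted p = 3.3e-05). Rtn4, which encodes Nogo, had -0.25 ± 0.06 (adjusted p = 0.0085) and -0.20 ± 0.07 (adjusted p = 0.058) at the same ages. Omg had -0.07 and 0.04 with adjusted p of 0.39 and 0.68. Clec2d, whose product Klrb1b binds, also singled out afterwards, had 0.14 ± 0.18 at P21 (adjusted p = 0.64) and -0.30 ± 0.18 at P60 (adjusted p = 0.26), at 99.0 to 148 in P21 cKO and 79.0 to 129 in P21 cHET.

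Other genes of the same families were in part too low to be tested. Of 26 with values, 11 were tested at P21 and 8 at P60, and 7 were higher in cKO than in cHET at each age, with none lower. Among all tested genes, 12.6% were higher at P21 and 13.4% at P60. Siglech, a Siglec gene counted among the homeostatic microglial genes and so not in these 26, was higher at P21 (0.62 ± 0.13, adjusted p = 0.0024) and lower at P60 (-0.87 ± 0.27, adjusted p = 0.037). Siglec1, a sialic acid lectin of macrophages, stood at 477 to 1150 in P21 cKO and 10.4 to 46.1 in P21 cHET (4.98 ± 0.39), Cd22, the inhibitory lectin best known from B cells, at 170 to 201 and 1.60 to 17.5 (4.91 ± 0.49), Cd33 at 607 to 769 and 114 to 212 (2.02 ± 0.17), and Cd300c2, a CD300 gene, at 561 to 757 and 73.2 to 111 (2.81 ± 0.17). Siglece was thus not called in a family whose members Siglec1, Cd33 and Cd22 were. Of 18 other inhibitory or activating myeloid receptors tested at P21, 11 were higher and 1 lower, and of 16 at P60, 12 were higher and 1 lower. Trem2 (3.28 ± 0.14), Fcgr2b (3.94 ± 0.19), Clec7a (4.96 ± 0.37) and Havcr2 (2.36 ± 0.19) had the smallest p at P21, and the lower gene was Pecam1 (-0.28, adjusted p = 0.047) at P21 and Ceacam1 (-0.67, adjusted p = 0.0059) at P60.

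**Figure D5:**
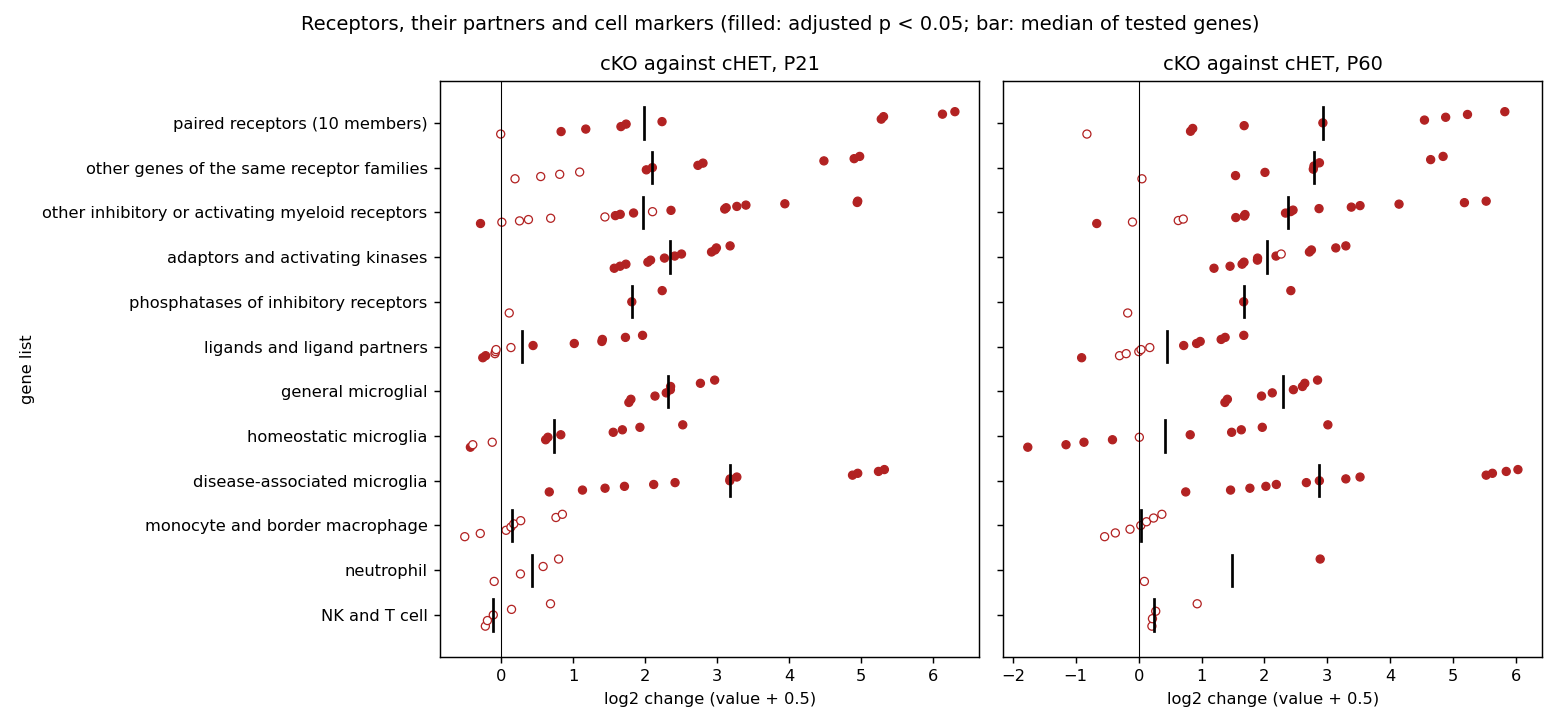
Log2 change of each tested gene in cKO over cHET, by list, at P21 (left) and P60 (right); filled points passed an adjusted p of 0.05 and bars are medians. The receptors spread over a wider range than the adaptors and general microglial genes, and the monocyte and border macrophage list has a median of 0.16 at P21 and 0.03 at P60.

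Markers of other cells that can carry these receptors were read in the same libraries. All 8 general microglial genes and all 13 genes of disease-associated microglia were higher in cKO than in cHET at both ages. The share of higher genes among all tested was 12.6% at P21 and 13.4% at P60. Homeostatic microglial genes, the other base of the relative fit, diverged: of 10, 7 were higher and 1 lower at P21, and 5 were higher and 4 lower at P60. At P60 Fcrls (3.01 ± 0.17) and Cx3cr1 (1.63 ± 0.07) were among the higher genes, and Tmem119 (-1.76 ± 0.17), P2ry12 (-1.15 ± 0.16), Siglech (-0.87) and Sall1 (-0.42 ± 0.06) were the lower ones. The disease-associated list holds Tyrobp, Trem2 and Clec7a, which also stand in lists above. None of 8 tested monocyte and border macrophage genes was called at P21 and none of 7 at P60, with 0 at an unadjusted p under 0.05 in both by limma. The summed level of that list was 234 to 280 in P21 cKO and 166 to 280 in P21 cHET, and 136 to 140 in P60 cKO and 92.5 to 147 in P60 cHET. None of 4 neutrophil genes was called at P21 (0 at an unadjusted p under 0.05), and 1 of 2 was at P60, Mmp8, which read 5.19 to 6.46 in cKO and 0 to 2.05 in cHET (adjusted p = 0.024). Mmp8 met the filter through its cKO libraries and in no cHET library, so its call carries the filter limit given above. The summed level of the neutrophil list was 51.3 to 53.7 in P60 cKO and 36.8 to 60.5 in P60 cHET. Of 4 B cell genes Cd79b was higher at P21, at 32.4 to 46.5 in cKO and 7.93 to 16.04 in cHET. Of 4 dendritic cell genes Flt3 was lower at P21 (-0.25, adjusted p = 0.012) and at P60 (-0.26, adjusted p = 0.048). The part of the amount of microglial RNA in each receptor's change was not separated beyond the ratios given above.

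The authors' deposited table of the same contrasts lists 9 of the 10 at P21, without Cd300lb, and 6 at P60, without Lilrb4a, Lilr4b, Cd300lb and Klrb1b. In it, 8 of the 9 had a q-value under 0.05 for cKO over cHET at P21 and 4 of the 6 at P60, and Siglece did not pass at either age (q-values of 0.996 and 0.25).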

How the data were processed

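Spinal cord RNA-seq of 21 mice was used, with groups taken from the genotype, age and sex in the labels. The deposited gene values are a signal per gene, named normalized scaled reads per base per the file headers, and were already on one scale within each age. Kallisto 0.43.0, sleuth 0.28.1 and the build GRCm38 are named in the submitters' processing notes, without their roles or the annotation release, which the sources used here do not state. The authors' deposited tables of contrasts give effects on a natural log scale of value + 0.5, divided here by the natural log of 2, with p-values and q-values. The values are not counts and the depth is unknown, so no interval or floor from counting is given.

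Log2(value + 0.5) was fitted with limma 3.58.1 in R 4.3.3, with a mean-variance trend and the 3 genotypes of an age in one fit. Low genes were left out unless 4 P21 libraries, or 3 P60 libraries, had a value of 5 or more. Benjamini-Hochberg adjustment ran over all genes tested, with a threshold of 0.05. Differences between ages came from one fit of all 6 groups. The relative fit subtracted the mean log2 value of 8 general microglial genes in each library. The script was tested on simulated data for cKO over cHET. Simulated log2 changes of 1 were recovered in 80.9% of genes at P21 and 55.7% at P60. For changes of 0.5 the shares were 47.5% and 44.8%, so a gene that was not called may still differ. No 2 libraries held identical values.

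Of 25127 genes, 24877 were matched to GENCODE M21, which gave positions and transcripts. Shared sequence was read as 31-base words of those transcripts. Promoters are RefSeq's for GRCm38.p6. The members and the 17 other gene lists were chosen with earlier results of these data known. Named genes are the 10 members, Tardbp, up to 4 genes of each list with the smallest p for cKO over cHET at P21, and the 3 genes most like each member by Pearson correlation over 21 libraries; genes named outside this rule were chosen after their values were seen. Alternatives were the pseudocount, the filter, 2 other scalings, the samples and weights in the fit, sex as a covariate, each library left out, the base of the relative fit and the authors' own tests.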

Additional observations from a re-analysis of the deposited data

Results flagged for a closer look

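Of 30 receptor and group combinations with 4 libraries, 4 held a library far from the other 3, by Dixon's 95% critical value for the gap to the nearest neighbour over the range of the group. Chance flags about 1 in 20 groups. Replicate 3 of P21 cHET was high for Lilrb4a (60.7, against 8.59 to 15.3 in the others; gap ratio 0.872) and for Pirb (37.8, against 17.9 to 19.4; 0.926). Replicate 2 of P21 control was low for Cd300a (107, against 141 to 148; 0.834). Replicate 4 of P21 control was the only P21 control library with a value above 0 for Klrb1b (8.67, ratio 1). With the others at 0, any value above 0 gives this ratio, so this flag is not set against the chance rate. In each case the value was below every P21 cKO library.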

How the results depend on the processing

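Among the counts of receptors called, 240 recomputed values stayed within 1.5 times the main count and 4 did not. At P60 the count for cKO over cHET and over control was 5 each with a filter on a mean of at least 50, which leaves fewer receptors to test, and 4 each in the authors' deposited table, which does not list 4 of the called receptors. Leaving out 1 library at a time gave 8 to 9 receptors over cHET at P21 and 7 to 8 at P60, and 6 to 9 called in either direction in the relative fit over cHET at P60. Of the values of single receptors, 2194 kept their direction and their side of the threshold, 17 were no longer called, 2 became called and 69 moved by more than their spread. With homeostatic microglial genes as the base, 12 relative changes turned positive, and the cause was not tested. Over cHET these were Pirb 1.35, Cd300lf 0.78 and Cd300a 0.29 at P21, and Cd300lf 0.39, Cd300a 1.21 and Sirpa 0.35 at P60. Over control they were Pirb 1.16, Cd300lf 0.59 and Cd300a 0.19 at P21, and Cd300lf 0.74, Cd300a 1.18 and Sirpa 0.46 at P60. With a pseudocount of 5, relative Klrb1b over control at P21 was 0.55 and not called. With 0.05, relative Cd300lb over control at P21 was 2.09 and not called. No paired analysis was possible because the labels carry mouse numbers and no replicate numbers shared between groups. Quantile normalization moved the median of all genes by at most 0.07 on the log2 scale. At P60 control differs from cKO in sex and age, and these cannot be told apart from genotype there. Depth is unknown, so low values have no counting interval.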
